A study of Medicago truncatula with 48 samples.

Results

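The 82 transcripts described here are the most abundant nuclear transcripts of the filling embryo of Medicago truncatula, the model legume barrel medic, out of 44473 transcripts in the count table, of which 44316 carry a chromosome identifier. They were chosen by their level in the libraries of plants grown at standard temperature. The level, called y, is the count of a transcript per 1000000 of the counts that remain in its library once the 100 largest counts are set aside, so that a few very abundant transcripts do not lower the value of all others. A transcript was selected on y when its highest standard group was the embryo at stage S1 or S2 and its mean y there was above 2000. Of the 82 transcripts, 32 were highest at S1 and 50 at S2. Their level and order among the standard groups are therefore a description and are not tested.

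Seed filling is the phase in which the legume embryo stores reserves. Its cells produce large amounts of storage proteins of the legumin, vicilin and albumin families and deposit oil and starch, and a small number of genes then supplies a large part of the messenger RNA. Later in maturation these transcripts give way to those of desiccation tolerance and longevity, among them late embryogenesis abundant proteins. None of the 44473 identifiers could be paired with a gene name, so that no role is given here to any transcript, and the tissues were not checked against marker genes.

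The libraries came from cultivar A17, single-end 50 bp RNA-seq of dissected embryo, endosperm and seed coat, the embryo being the young plant, the endosperm the nutritive layer around it and the seed coat the maternal envelope. Standard plants grew at 20 °C by day and heat-stressed plants were moved to 26 °C at flowering. Stage S1 is the start of maturation before desiccation tolerance, S2 lies within filling after desiccation tolerance, S3 is the end of filling and the onset of longevity, and S4 is the mature seed. These stages fell at 17, 26, 36 and 44 days after pollination at 20 °C and at 14, 17, 22 and 28 days at 26 °C, so that heat and standard samples of a stage differ in age. Embryo had 3 replicates per group and endosperm 2, each at all 4 stages and both temperatures. Seed coat had 2 replicates at S1 and S2 only. RNA was extracted from frozen ground lots of tissue, and because nothing says that the lots came from separately grown plants, p-values measure the spread between these samples.

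Estimated counts summed to 17690400 to 20084600 per embryo library, 17864500 to 18649200 per endosperm library and 21549800 to 53776200 per seed coat library, in rounded totals. In the embryo, 2 libraries stood apart from their replicates over these transcripts. Replicate 2 of standard S3 held the highest y of its group for 78 of the 82 transcripts, and replicate 3 of heat S4 the lowest for 77. Spread between replicates was taken as the median standard deviation of log2 CPM (counts per 1000000 of the scaled library total). For the members it was 0.52 and 0.49 in those groups and 0.03 to 0.15 in the other embryo groups. For all transcripts tested it was 0.34 and 0.26 in those groups and 0.13 to 0.20 in the others, so the spread was not limited to the members. In the seed coat, the 2 replicates of S1 differed widely in these transcripts at each temperature, with values given below. Since the samples are bulk tissue, fewer cells of a type and less RNA per cell cannot be told apart.

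**Figure D1:**
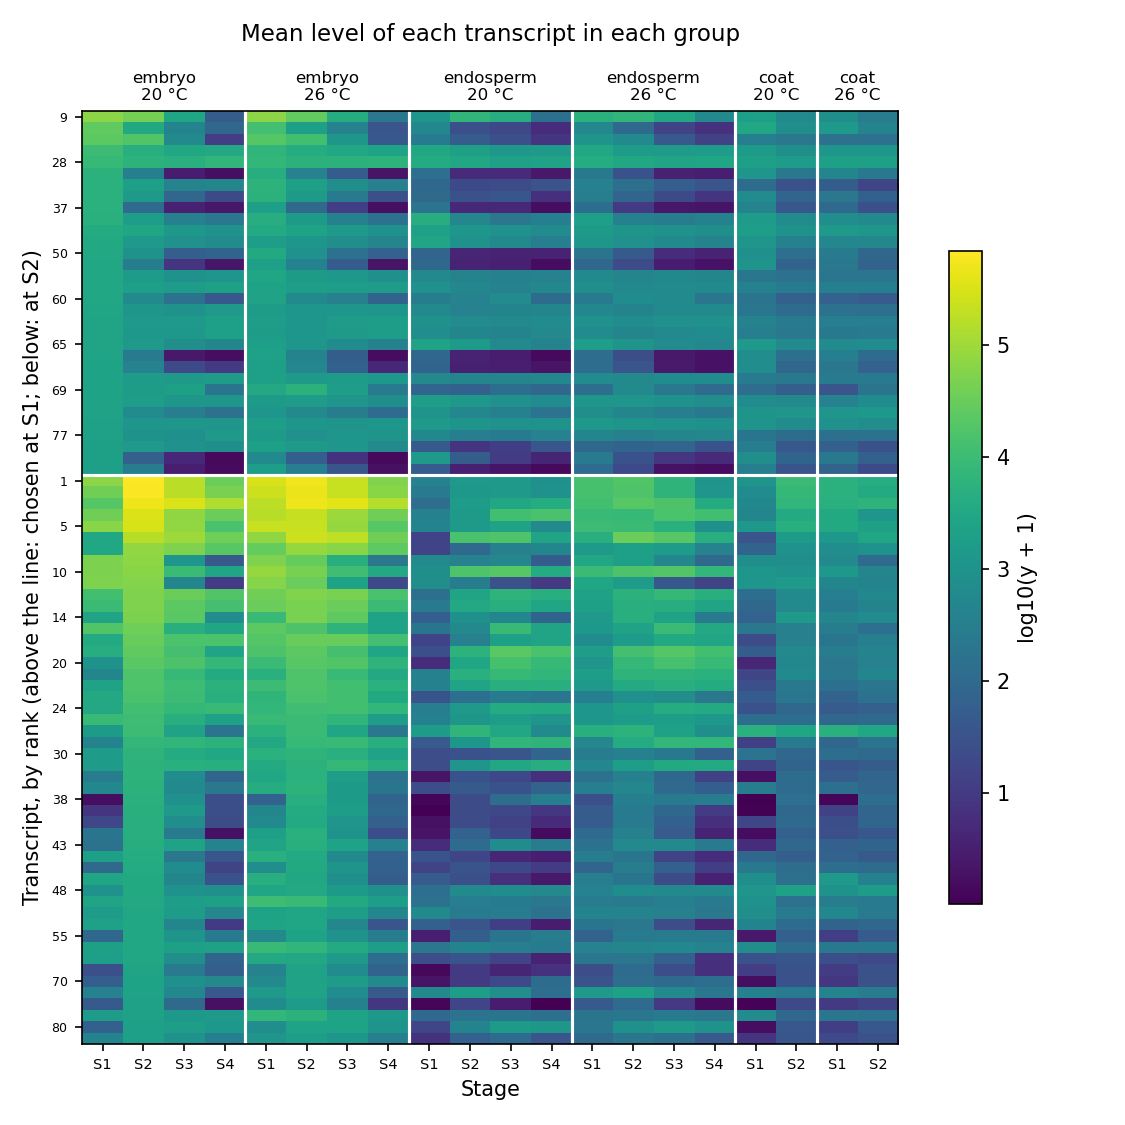
Mean level of each of the 82 transcripts (one line each, marked by rank of y) in the 20 groups, as the colour of log10(y + 1); columns are stages within tissue and temperature. Transcripts chosen at S1 stand above the white line and those chosen at S2 below it, and the highest values lie in the embryo at S2.

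The y that chose the members ran from 682798 for rank 1 to 2003 for rank 82, with a median of 4566. The last members inside the limit had 2056, 2034 and 2003, and the first transcripts outside it had 1986, 1982 and 1962. The transcripts lay on all 8 chromosomes, with 16 on chromosome 7, 19.5% of the members against 12.8% of all chromosomal transcripts, and 6 on chromosome 6. Their median length was 1574 bases (213 to 3695), against 1284 over the table. A total of 14 members formed 6 runs of neighbouring identifiers. Ranks 1 and 2 neighbour each other on chromosome 1, ranks 3 and 7 and, elsewhere, ranks 8, 9, 15 and 19 on chromosome 7, ranks 17 and 20 on chromosome 2, ranks 27 and 71 on chromosome 4, and ranks 51 and 76 on chromosome 5. Neighbours of this kind can be near-identical copies, between which the quantifier divides reads. Of the non-zero values of the runs, 88.4% were not whole numbers, against 42.3% for the other members and 29.7% for all transcripts. For 23 members, ranks 1, 2 and 3 among them, every one of the 48 values was a divided count, and their split between copies is uncertain, whereas 20 members had whole counts throughout.

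Levels can be compared between transcripts only per length. Divided by effective length, the embryo under heat at S2 had the highest y per kilobase for rank 6, at 797393. Rank 76 came next at 483297, but this transcript is 213 bases long and its effective length is short, which raises any value per length. Ranks 3, 1 and 2 followed with 293658, 287466 and 278901 y per kilobase. The median over the 82 members on this scale was 2962.

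The members took a large part of all embryo RNA counts, and at S1 their summed share was larger under heat. At S1 they held 39.3% ± 0.026 of the counts at 20 °C and 63.4% ± 0.62 at 26 °C (SD, n = 3 each). The larger share under heat lay in the members chosen at S2, with 26.9% at 20 °C and 57.2% at 26 °C. Their selection required a lower mean y at standard S1 than at standard S2. The members chosen at S1 took 12.5% and 6.14%. At S2 the shares of all members were 74.2% ± 0.82 and 69.9% ± 0.30. They declined to 46.2% ± 5.3 and 51.1% ± 1.1 at S3 and to 24.1% ± 1.8 and 26.4% ± 5.1 at S4. The replicates of both temperatures were apart at S1 and S2 and overlapped at S3 and S4. In all embryo libraries, between 24 and 69 of the 100 largest counts belonged to the members, and in the 6 libraries of S1 all 10 of the largest counts did. The standard libraries chose the members, and no test is given for these sums.

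**Figure D2:**
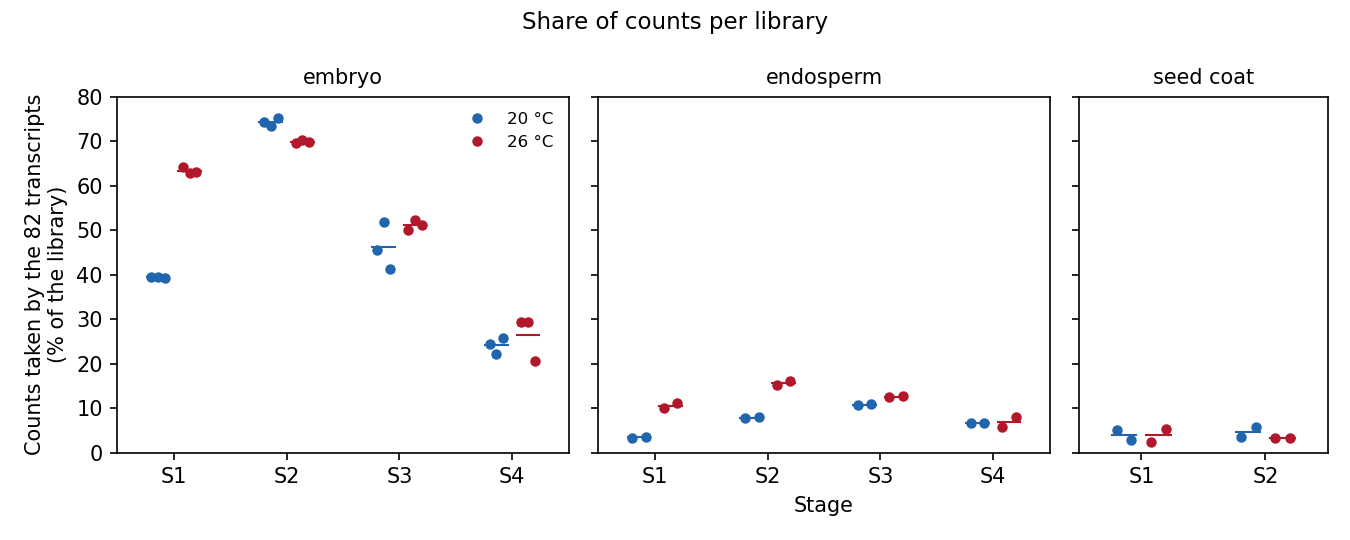
Percent of each library's counts taken by the 82 transcripts (vertical axis), by stage and tissue; points are libraries and short lines their means, in blue at 20 °C and in red at 26 °C. In the embryo at S1 the 3 heat libraries lie near 63% and the 3 standard libraries near 39%, while endosperm and seed coat stay below 16%.

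Rank 1, the member with the highest y, carried up to 15.1% of a library. Its y at 20 °C was 68703, 66882 and 64301 at S1, 682977, 653155 and 712261 at S2, 162829, 239713 and 113155 at S3 and 33898, 27569 and 41355 at S4. At 26 °C it was 312492, 298226 and 305048 at S1, 499766, 520594 and 507810.0 at S2, 205006, 231984 and 219428 at S3 and 65903, 66639 and 32238 at S4. The S1 values under heat were thus already of the order of those at S2, the groups did not overlap at S1 or S2, and they did at S3 and S4. Over the means of the 10 heat groups, which the selection did not use, the transcripts most like it in log2(y + 1) were ranks 2, 5 and 30, with Pearson r of 1.00, 0.99 and 0.98 as a description over groups that share depth and tissue. Ranks 1 and 2 are neighbours with divided counts throughout, and how far shared reads make their courses alike was not tested. Rank 6 began lower than rank 1. Its y at S1 was 3572, 2738 and 2973 at 20 °C and 74042, 72006 and 78400.4 at 26 °C, and at S2 101306, 176529 and 197305 at 20 °C and 237862, 248484 and 238484 at 26 °C. Within each stage, all heat libraries were above all standard ones. At S2 the adjusted p of rank 6 was nevertheless not below 0.01 in the test described below. Rank 3 kept more of its level in the mature seed than rank 1, with 137199, 122523 and 150790.0 at 20 °C and 170717, 171253 and 120758 at 26 °C at S4.

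The next members followed courses of both kinds. Rank 2, the neighbour of rank 1, had y of 39628, 35235 and 34492 at 20 °C and 261450.0, 241943 and 235268 at 26 °C at S1 (log2 fold change 2.64, SE 0.33, adjusted p = 1.90e-06). Rank 4 had 37364, 37466 and 38708 and 170753, 164066 and 157097 (log2 fold change 2.00, SE 0.30, adjusted p = 1.66e-05). Rank 5 had 64000.3, 62357 and 60636 and 240309, 216982 and 221200.0 (log2 fold change 1.74, SE 0.30, adjusted p = 9.48e-05). Heat libraries were above standard ones without overlap in all 3, which were all chosen at S2. Rank 7, the neighbour of rank 3, had 3527, 2973 and 3007 and 28066, 29293 and 27831 (log2 fold change 3.04, SE 0.25, adjusted p = 3.94e-09). Rank 8, of the run of 4 on chromosome 7, had 42893, 50261 and 51391 at 20 °C and 50749.7, 51527 and 53611 at 26 °C at S1 (log2 fold change 0.00, SE 0.35, adjusted p = 1.00). Rank 9, of the same run, had 62967, 68060.1 and 72354 and 69234, 65775 and 64953 (log2 fold change -0.14, SE 0.34, adjusted p = 0.783). In ranks 8 and 9 the temperatures overlapped at S1. By S3 rank 8 had declined to 1306, 1427 and 782 at 20 °C and 5932, 3863 and 3897 at 26 °C (log2 fold change 2.26, SE 0.37, adjusted p = 1.21e-04).

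**Figure D3:**
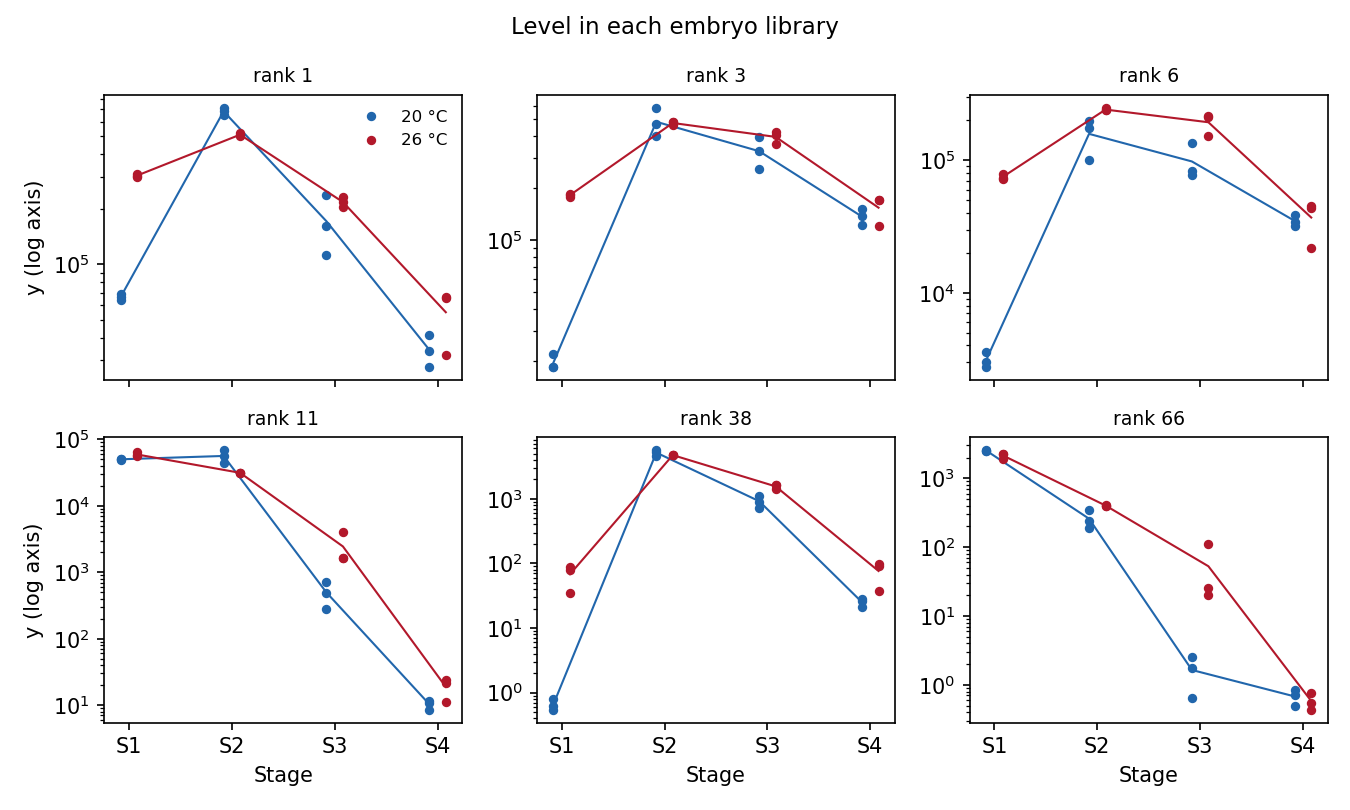
Level y (log axis) of the transcripts of rank 1, 3, 6, 11, 38 and 66 in each embryo library over the stages S1 to S4; points are libraries and lines join group means, in blue at 20 °C and in red at 26 °C. Ranks 1, 3, 6 and 38 are higher under heat at S1, and ranks 11 and 66 are higher under heat at S3.

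The time course within heat-stressed embryo was tested on its 12 libraries alone, none of which chose the members. Tests used the quasi-likelihood method of edgeR with Benjamini-Hochberg adjustment over all transcripts tested, and a transcript was called at an adjusted p below 0.01. From S1 to S2, 21 members rose and 25 fell, where 12% of all 20487 transcripts tested rose and 10.6% fell. Of the 32 transcripts chosen at S1, 24 fell and none rose, with a median log2 change of -0.86. Of the 50 chosen at S2, 21 rose and 1 fell, with a median of 0.67. The order of both stages seen at 20 °C therefore recurred among the members called. Of the members, 38 had their highest heat mean in the embryo at S1, 37 at S2, 4 at S3, 2 at S4, and 1 in the seed coat at S2. Of the 50 chosen at S2, 11 were highest at S1 under heat. The 32 chosen at S1 took 12.5% of the counts at 20 °C and 6.14% at 26 °C in embryo at S1, and 2.29% and 2.09% at S2. The median over the members of S1 as a percent of S2 was 98.6% under heat and 65.2% at 20 °C. With library totals as the only scaling, 17 of 57 called members rose. Here and below, the share of all transcripts called in each direction under this scaling is not given. Nothing is read from these counts alone.

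From S2 to S3 under heat, 2 members rose and 46 fell, where 21.2% of all transcripts rose and 21.4% fell, and the median log2 change was -0.91 for the members and -0.03 for all. With library totals as the only scaling 11 of 57 called members rose, again without a share of all transcripts beside it. The 2 members called higher were the following. MtrunA17_Chr1g0188771, rank 31, on chromosome 1, had y of 5791, 5607 and 5921 at S2 and 6909.6, 7989.7 and 8449.5 at S3 (log2 fold change 0.61, SE 0.14, adjusted p = 0.00255). MtrunA17_Chr8g0347691, rank 63, on chromosome 8, had 1214, 1246 and 1222 and 1566, 1687 and 1619.7 (log2 fold change 0.58, SE 0.13, adjusted p = 0.00142). Neither overlapped between the stages. The first was no longer called without heat S2 replicate 1 or 2 or heat S3 replicate 2 or 3, with adjusted p up to 0.0151 in edgeR. The steepest falls were those of 2 others. MtrunA17_Chr1g0168781, rank 11, went from 31791, 31446 and 31177 to 4087, 1646 and 1616 (log2 fold change -3.51, SE 0.37, adjusted p = 2.87e-06). MtrunA17_Chr7g0249181, rank 19, of the run of 4 neighbours on chromosome 7, went from 11564, 11726 and 11914 to 1707, 997 and 999 (log2 fold change -3.07, SE 0.33, adjusted p = 3.70e-06), with divided counts in all libraries. In both, replicate 1 of S3 was higher than the others. The 57 transcripts chosen in the same way but highest at S3 or S4 of standard embryo moved otherwise, with 51 higher and none lower.

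From S3 to S4 under heat, 72 members fell and none rose, where 29.1% of all transcripts fell and 20.7% rose, and the median log2 change was -1.77 against -0.13. With library totals as the only scaling, 9 of 68 called members rose, again without a share of all transcripts beside it. All 50 members chosen at S2 fell. The 10 that were not called (ranks 26, 28, 58, 61, 63, 64, 68, 72, 75 and 77) had all been chosen at S1. The mature embryo thus held very unequal remnants. S4 stood at a median of 15.3% of S2 under heat, under 1% for 13 members and above 50% for 13, of which 5 exceeded their S2 level. The extremes, given after their values were seen, were rank 11, at 0.060% of its S2 mean, and rank 64, at 157%. Rank 64 had y of 1842, 1529 and 1647 at S1, 1141, 1163 and 1162 at S2, 1483, 1474 and 1413 at S3 and 1939, 2068 and 1431 at S4 under heat, and was thus held throughout. At 20 °C, the median was 11.6%, with 18 members under 1% and 20 above 50%.

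Heat was compared with standard temperature at each stage over all 24 embryo libraries. The standard libraries also chose the members, so that part of the direction is set by the selection at every stage. At S3 and S4 the standard mean of each member had to be below that of its S1 or S2. At S1, transcripts chosen at S2 had a lower standard mean, and those chosen at S1 had their highest. At S1, 41 members were higher and 10 lower under heat, where 11.7% of the 21992 transcripts tested were higher and 14.2% lower. All 41 had been chosen at S2 (median log2 fold change 1.93 over the 50) and all 10 at S1 (median -0.42 over the 32), beside 0.00 for all transcripts. Heat and standard libraries did not overlap for any of the 51 called members in normalised CPM. Scaled by library totals alone, 40 of 67 called members were higher, and the medians were 0.20 for the members and -0.62 for all transcripts.

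The largest increases at S1 were in transcripts that were almost absent from standard embryo at that stage. MtrunA17_Chr8g0388921, rank 38, on chromosome 8, had y of 0.546, 0.63 and 0.81 at 20 °C and 34.6, 80.3 and 88.3 at 26 °C (log2 fold change 6.52, SE 0.49, adjusted p = 1.01e-09). MtrunA17_Chr2g0288661, rank 40, on chromosome 2, had 12, 4.5 and 5.4 and 387, 532 and 510.3 (log2 fold change 5.89, SE 0.39, adjusted p = 1.73e-10). In both, each heat library was far above each standard one, while their heat S1 level was still below the means of 4729 and 3884 they reached at S2. The strongest decreases were in transcripts that fade after S1. MtrunA17_Chr4g0041841, rank 79, on chromosome 4, had 2193, 2140.0 and 1948 at 20 °C and 709, 575 and 607 at 26 °C (log2 fold change -1.85, SE 0.24, adjusted p = 3.79e-06). MtrunA17_Chr2g0317921, rank 37, on chromosome 2, had 5483, 5132 and 5134 and 2271, 1869 and 1912 (log2 fold change -1.50, SE 0.27, adjusted p = 1.40e-04). Of the 10 highest members, 7 were higher under heat and none lower. The other 3 were ranks 8, 9 and 10, with log2 fold changes of 0.00, -0.14 and 0.60.

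**Figure D4:**
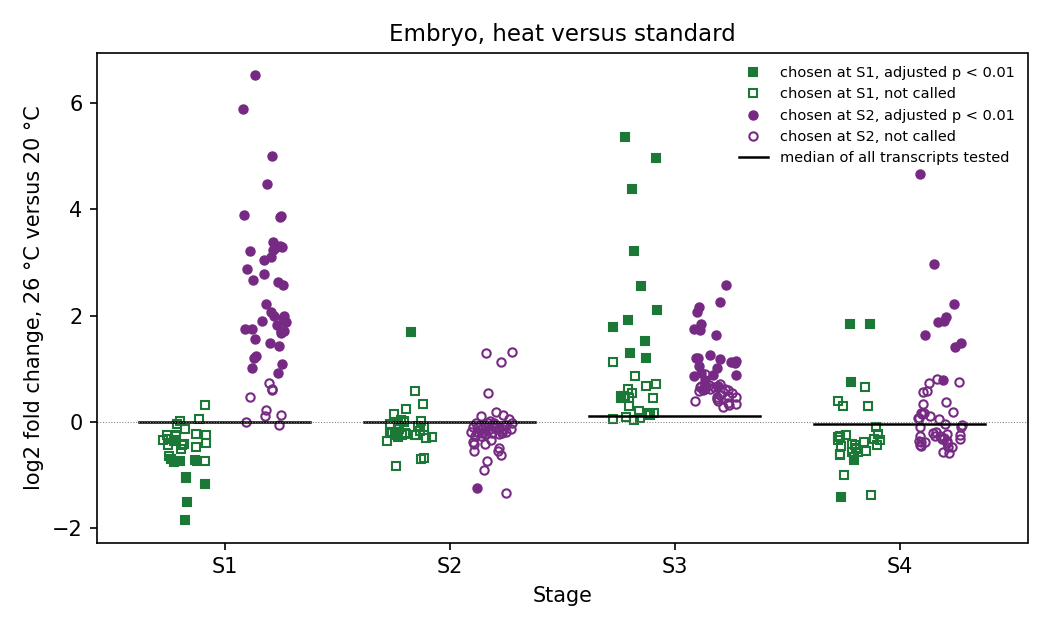
Log2 fold change of each of the 82 transcripts in embryo, 26 °C against 20 °C, at each stage; green squares were chosen at S1 and purple circles at S2, filled symbols have an adjusted p below 0.01, and black lines are the median of all transcripts tested. At S1 the filled circles are all above 0 and the filled squares all below, at S2 only 1 of each is filled, and at S3 every filled symbol is above 0.

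At S2, y in every heat library was below that in every standard library for 43 members and above it for 11. The same count was not made over all transcripts. Standard S2 was also the highest standard group of the 50 members chosen at S2, which favours lower heat values. The 10 highest members had a median log2 fold change of -0.54, and all 82 of -0.15. Rank 4 had 368167, 311639 and 350215 at 20 °C and 207456, 218588 and 216247 at 26 °C (log2 fold change -0.74, SE 0.29, adjusted p = 0.167). Of the 82, 1 was called higher and 1 lower under heat, where 0.641% of all transcripts were higher and 0.691% lower, a share near that of all transcripts. The higher one was rank 69, with 1371, 1911 and 1908 at 20 °C and 5706, 5746 and 5979 at 26 °C (log2 fold change 1.69, SE 0.27, adjusted p = 7.73e-04). The lower one was rank 15, of the run on chromosome 7, with 50899.8, 27141 and 29304 and 15579, 15886 and 16154 (log2 fold change -1.23, SE 0.26, adjusted p = 0.00851). Both stand here because they were the only ones called. The count of calls at S2 depended on the processing. It was 28 (4 higher) with only the 6 libraries of S2 in the fit and 7 with DESeq2. It was 6 (5 higher) with library totals and 4 (3 higher) with totals less the 100 largest counts. Calls over all transcripts under these settings are not given here. The count was 1 with any single replicate of standard S1, standard S4, heat S2 or heat S3 left out. It was also 1 without replicate 1 or 3 of standard S2 or of heat S1, or replicate 1 of heat S4. Calls over all transcripts moved too, from 293 to 112, 108 and 108 without heat S2 replicate 1, 2 or 3. They were 338 and 141 without standard S2 replicate 1 or 3.

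A set of 3 short transcripts on chromosome 5, chosen for mention after their values were seen, had y under heat above any standard embryo group at both S1 and S2. Rank 51 had 4091, 2136 and 1664 at 20 °C and 12393, 9565 and 9634 at 26 °C at S1 (log2 fold change 1.87, SE 0.33, adjusted p = 1.10e-04), and 3898, 2927 and 3103 and 9460.1, 8282 and 7708 at S2 (log2 fold change 1.30, SE 0.32, adjusted p = 0.0247). Rank 56 had 3219, 1721 and 1499 and 11158, 7622 and 7568 at S1 (log2 fold change 1.91, SE 0.31, adjusted p = 5.65e-05). Rank 76, the neighbour of rank 51, had 2614, 1485 and 1054 and 9110.4, 6465 and 6327 (log2 fold change 1.96, SE 0.33, adjusted p = 7.70e-05). All 3 were called at S1 and none at S2, although at S2 too the heat and standard libraries of rank 51 did not overlap. Replicate 1 was the highest of its group in each of them at S1. Of the 48 counts of each, 48, 48 and 46 were divided values. Ranks 51 and 76 are neighbours, and whether the 3 share reads with each other was not tested.

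At S3, 36 members were higher under heat and none lower, where 15.3% of all transcripts were higher and 7.99% lower, with a median log2 fold change of 0.68 for the members and 0.11 for all. The 57 transcripts highest at S3 or S4 moved likewise, with 36 higher, none lower and a median of 0.77. The members were selected to be lower at standard S3 than at S1 or S2. This count rested on the standard S3 libraries, which were unequal. It was 70 without replicate 2, 20 without replicate 1 and 20 without replicate 3, and 1 with only the 6 libraries of S3 in the fit. The calls over all transcripts moved alike, from 5128 to 9395 without replicate 2, 2204 without replicate 1 and 2133 without replicate 3. With library totals as the only scaling, 24 of 30 called members were higher, and the medians were 0.14 for the members and -0.49 for all. The largest increases were in 2 transcripts that had nearly vanished at 20 °C. MtrunA17_Chr2g0318521, rank 66, on chromosome 2, had y of 0.647, 2.5 and 1.78 at 20 °C and 113, 25.3 and 20.5 at 26 °C (log2 fold change 5.36, SE 0.57, adjusted p = 8.05e-07). MtrunA17_Chr6g0476641, rank 34, on chromosome 6, had 1.81, 2.97 and 1.4 and 109, 22.8 and 19.6 (log2 fold change 4.96, SE 0.55, adjusted p = 1.40e-06). Replicate 1 of heat S3 was the highest of its group in both, and without it the log2 fold changes were 4.17 and 3.73. Both transcripts were abundant at S1, with 2289, 1926 and 2264 for rank 66 and 4929, 3738 and 4287 for rank 34 under heat.

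At S4, 13 members were higher and 2 lower, where 5.52% of all transcripts were higher and 5.08% lower, and the members' median was -0.24 against -0.03. The 2 lower were rank 18 (log2 fold change -1.40, SE 0.33, adjusted p = 0.00524) and rank 39 (log2 fold change -0.71, SE 0.18, adjusted p = 0.00712). Among the higher were ranks 8, 9 and 19 of the run on chromosome 7, for example rank 8 with y of 44.4, 28 and 55.2 at 20 °C and 277, 274 and 89.9 at 26 °C (log2 fold change 2.22, SE 0.37, adjusted p = 4.73e-04). At S1 the same transcript had 50749.7, 51527 and 53611 under heat. The count at S4 was 5 without standard S4 replicate 1 or 2, and 9 without standard S4 replicate 3 or heat S4 replicate 1. It was 26 (14 higher) without standard S3 replicate 2. The calls over all transcripts moved alike, from 2331 to 789, 757 and 1022 without standard S4 replicate 1, 2 or 3. They were 1894 without heat S4 replicate 1 and 5029 without standard S3 replicate 2. With library totals as the only scaling, 16 of 28 called members were higher, without a share of all transcripts beside it.

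The heat effect differed between the 4 stages for 66 of the 82 members, where 43.7% of all transcripts differed. The selection fixed the peak of the standard course that enters this test, so nothing is read from the count. At the same age of 17 days, where heat embryo is at S2 and standard embryo at S1, 42 members were higher and 31 lower under heat, where 23.9% of all transcripts were higher and 23.5% lower. Of the 32 chosen at S1, 31 were lower, and of the 50 chosen at S2, 41 were higher and none lower. This split is largely set by the selection, which used the same standard S1 libraries. At this age stage and temperature cannot be told apart. The 9 members that were not called were ranks 8, 10, 11, 15, 25, 47, 53, 54 and 59.

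Across tissues, the heat libraries alone were used. Embryo exceeded endosperm for 79 members at S1, 76 at S2, 65 at S3 and 51 at S4. Among all 27374 transcripts tested, 29%, 26.7%, 23.4% and 21.6% were higher in embryo at these stages and 37.4%, 33.8%, 33.7% and 29.1% lower. No member was called lower in embryo from S1 to S3, although 1, 1 and 6 members had a higher mean y in endosperm at these stages, and 8 were called lower at S4 (ranks 17, 27, 38, 39, 60, 71, 73 and 79). The median log2 difference declined from 4.05 at S1 over 3.49 and 3.06 to 1.31 at S4. With library totals as the only scaling, 52 of 61 called members were higher in embryo at S2 and 52 of 62 at S3, and all transcripts had a median of -1.88 and -1.33. The 3 members not called at S1 were ranks 27, 65 and 71, of which ranks 27 and 71 are neighbours. Embryo exceeded seed coat for 80 members at S1 and 79 at S2, where 29.1% and 28.9% of all transcripts were higher and 40.2% and 37.8% lower. The only lower one, at S2, was rank 73 (log2 fold change -1.26, SE 0.12, adjusted p = 9.77e-09).

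Some members reached high levels in the endosperm. Rank 17 reached 19738 and 20985 there at S3 under heat, above the 12902, 13850.2 and 12759 of embryo (log2 fold change -0.47, SE 0.43, adjusted p = 0.342), a difference that was not called. In standard endosperm it had 38.8 and 13.5 at S1 and 23419 and 20550.3 at S3. Its neighbour rank 20 had 14682 and 13282 in standard endosperm at S3. Rank 10 had 17799.8 and 23483 in standard endosperm at S3, against 10135, 11342 and 7678 in embryo. Rank 4 had 15104 and 14561 in standard endosperm at S4, against 1508 and 1585 at S2. In these 4 transcripts, given after their values were seen, the mean of standard endosperm was higher at S3 than at S1 and S2. The median y of all members chosen at S2 rose likewise in standard endosperm, with 46.9, 373 and 493 at S1 to S3 and 287 at S4. The mean of the 4 in standard embryo was lower at S3 than at S2. This is set by the selection, since all 4 were chosen at standard embryo S2.

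In the endosperm, heat was compared with standard temperature over its 16 libraries. The standard ones entered the selection, since each member had to be lower there than in standard embryo at S1 or S2. At S1, 60 were higher and 7 lower than at 20 °C, where 17.7% of the 26400 transcripts tested were higher and 15.3% lower. At S2, 51 were higher and 3 lower, beside 8.84% and 4.36%. At S3, 34 were higher and 1 lower, beside 6.8% and 3.54%. At S4, 8 were higher and none lower, beside 3.27% and 2.05%. The median log2 fold changes of the members were 1.97, 1.73, 0.42 and 0.37 in this order, and those of all transcripts 0.01, 0.01, 0.00 and 0.04. The lower ones at S2 were ranks 39, 65 and 79 and the lower one at S3 was rank 36. The count at S3 was 23 without replicate 1 of heat S3. The count at S4 was 18 without replicate 1 of heat S4, 3 without either replicate of standard S2, 1 without either replicate of standard S4, 4 without either replicate of heat S1, 5 without either replicate of heat S3, and 21 with DESeq2.

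The 10 highest members had a median log2 fold change in endosperm of 4.93 at S1, where all 10 were higher, and of 2.61 at S2, where 7 were. Rank 1 had y of 489.7 and 278 at 20 °C and 12978 and 15201 at 26 °C (log2 fold change 5.25, SE 0.50, adjusted p = 1.59e-06). Relative to embryo of the same stage and temperature, the 10 stood at a median of 0.910% and 0.511% in the standard endosperm libraries of S1, with a range over the 10 of 0.310% to 1.77%. Under heat the medians were 5.12% and 6.26%, with a range of 4.00% to 12.9%. The ranges of the temperatures did not overlap at S1, and in embryo too 7 of the 10 were higher under heat at this stage. How far RNA carried over from embryo at dissection contributed was not tested.

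**Figure D5:**
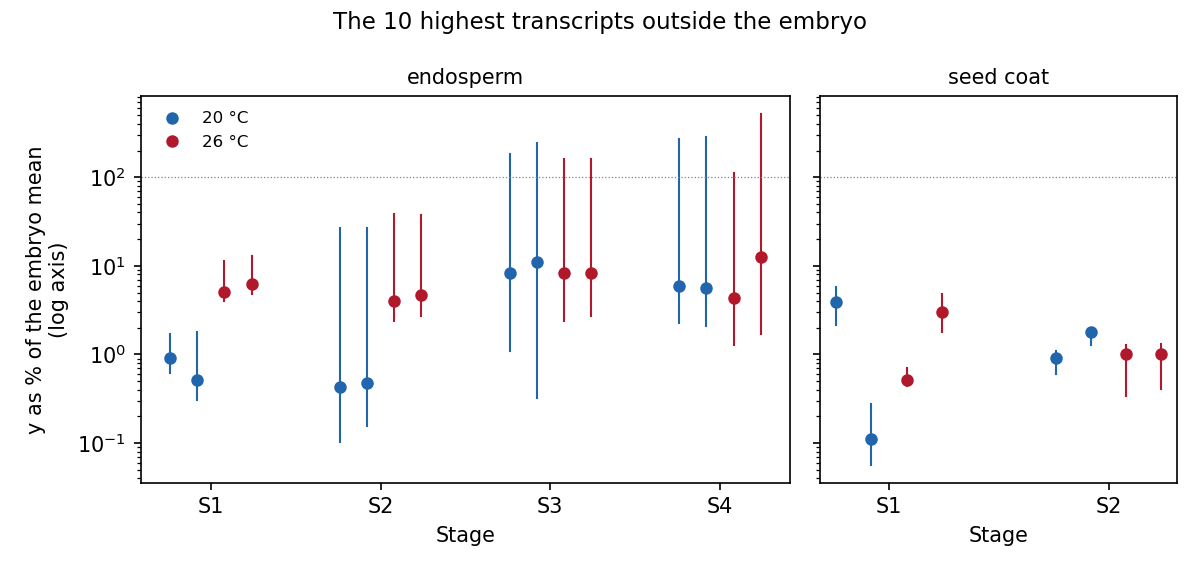
Level y of the 10 highest transcripts in each endosperm and seed coat library, as a percent of the embryo mean of the same stage and temperature (log axis); points are the median and vertical lines the range over the 10, in blue at 20 °C and in red at 26 °C, with the dotted line at 100%. In endosperm at S1 the heat libraries stand above the standard ones, and in seed coat at S1 the 2 libraries of each temperature differ from each other.

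In the seed coat, replicates of S1 were unlike each other in these transcripts. The 10 highest members stood at a median of 3.89% of embryo in replicate 1 and 0.112% in replicate 2 at 20 °C, and at 0.509% and 3.01% at 26 °C. For rank 1, y was 2089.6 and 59.7 at 20 °C and 1462 and 9259 at 26 °C, so that the temperatures overlapped (log2 fold change 2.26, SE 1.39, adjusted p = 0.222). Of the 82, 7 were higher and 20 lower under heat at S1, where 12.4% of the 25439 transcripts tested were higher and 14.9% lower, and none of the 10 highest was called. The count of called members was 7 with only the 4 libraries of S1 in the fit. Without either replicate of heat S2, which leaves 1 library in that group, fewer members and fewer of all transcripts were called. Most of the members called higher were then no longer called. At S2, 1 was higher (rank 47, log2 fold change 1.30, SE 0.16, adjusted p = 0.00388) and 1 lower (rank 18, log2 fold change -0.99, SE 0.14, adjusted p = 0.0072), where 1.14% and 2.39% of all transcripts were. That count was 9 with DESeq2, 22 with only the 4 libraries of S2 in the fit, 4 without either replicate of standard S1, 1 without either replicate of heat S1, and 0 without any replicate of standard or heat S2.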

How the data were processed

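Reads were 50 bp single-end. The authors quantified them with Salmon against the MtrunA17r5.0-ANR transcriptome and deposited estimated counts for 44473 transcripts and 48 libraries, with other columns of length and effective length. Here y was computed from these counts with the 100 largest counts of each library set aside. Counts were rounded to whole numbers and tested in R 4.3.3 with edgeR 4.0.16 (TMM scaling, filterByExpr at 10 counts, quasi-likelihood test, Benjamini-Hochberg adjustment, threshold 0.01), in one fit per tissue, heat embryo alone, or all heat libraries. Alternatives used DESeq2 1.42.0, other scalings, filters, thresholds and samples. Estimated counts divide reads between similar transcripts. Tests were checked on simulated data. Tables were made with pandas 2.3.3 and figures with matplotlib 3.10.9.

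The members and lists were chosen with earlier results of these data known. In each of 3 comparisons (heat against standard at S1 and at S3, heat S2 to S3) up to 2 members per direction, called and without overlap between replicates, are given by identifier, and others by rank of the y that chose them. Of the 44473 identifiers, 0 matched the gene table used here, so lists by annotation were not applied.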

Additional observations from a re-analysis of the deposited data

Results flagged for a closer look

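The heat effect in embryo differed between the 4 stages for 66 of the 82 members at an adjusted p below 0.01 (edgeR, test of the temperature by stage terms). Among the members given by identifier for their heat effect, the adjusted p of this difference was 1.67e-07 for MtrunA17_Chr8g0388921 and 1.77e-08 for MtrunA17_Chr2g0288661, both higher under heat at S1. It was 0.000109 for MtrunA17_Chr4g0041841 and 1.22e-05 for MtrunA17_Chr2g0317921, both lower under heat at S1. For MtrunA17_Chr2g0318521 and MtrunA17_Chr6g0476641, higher under heat at S3, it was 9.66e-06 and 1.11e-05. The standard libraries in this test also chose the members by their stage of highest level, which builds in part of a difference between stages. The transcripts given by identifier were moreover picked for a large heat effect at a single stage in these same libraries. That pick favours a small p here, so nothing is read from these values. As stages were matched by development and not by age, temperature and age cannot be told apart in these differences. No group had 4 or more libraries, so single libraries were not tested as outliers.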

How the results depend on the processing

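The number of members was 21 with CPM of the full library, 205 with y above 1000 and 44 with y above 4000, and the share of counts in standard embryo at S1 was 39.5% with nuclear counts as the total. For heat against standard in embryo at S2, 7 members were called at a threshold of 0.05, 6 with library totals, 5 without the filter, 1 with a replicate block, 7 with DESeq2 and 28 with only the groups compared. At S3 it was 1 with only the groups compared. At S4 it was 24 at 0.05, 28 with library totals and 4 with only the groups compared. From heat S1 to S2, 70 were called with only the groups compared. In endosperm it was 21 at S3 with only the groups compared, and at S4 24 at 0.05, 4 with library totals, 14 without the filter, 21 with DESeq2 and 0 with only the groups compared. In seed coat it was 7 at S1 with only the groups compared, and at S2 5 at 0.05, 1 with the block, 9 with DESeq2 and 22 with only the groups compared. Calls over all transcripts under these settings are not given here. A change particular to the members therefore cannot be told from a change over all transcripts. The causes were not tested.

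Leaving out single replicates gave 45 to 56 calls in embryo at S1, 1 to 3 at S2, 20 to 70 at S3, 5 to 26 at S4, 69 to 75 at 17 days and 60 to 82 for the difference between stages. For the heat course it gave 32 to 68, 37 to 61 and 67 to 72. Against endosperm it gave 78 to 80, 67 to 79, 62 to 69 and 49 to 63, and against seed coat 80 to 81 and 79 to 81. In endosperm it gave 60 to 68, 46 to 59, 23 to 41 and 1 to 18, and in seed coat 17 to 36 and 0 to 4. Same-numbered embryo replicates did not all deviate together (r from -0.09 to 0.19), so the numbers were not taken as pairs, and in endosperm and seed coat this was not examined. With the replicate block, 52, 1, 37 and 15 members were called in embryo at S1 to S4, 66, 53, 35 and 8 in endosperm, and 21 and 1 in seed coat. Except where given above, these counts of members have no calls over all transcripts beside them. No member given by identifier changed direction. With only the groups compared, MtrunA17_Chr2g0318521 (adjusted p = 0.0169) and MtrunA17_Chr6g0476641 (adjusted p = 0.0179) missed the edgeR threshold, and MtrunA17_Chr1g0188771 did without heat S2 replicate 1 or 2 or heat S3 replicate 2 or 3.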

Other observations

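The 57 transcripts that passed the same limit on y but were highest in standard embryo at S3 or S4 took a growing share of embryo counts, with 1.21%, 4.24%, 14.2% and 22.2% over the stages in standard seeds and 1.86%, 5.35%, 16.7% and 19.8% in heat-stressed seeds (means of 3 replicates). Their median log2 change under heat was 2.08 from S1 to S2 and 1.79 from S2 to S3, beside -0.03 and -0.91 for the 82 members. In embryo at S1, 42 of the 57 were higher under heat and 1 was lower, where 11.7% of all transcripts tested were higher and 14.2% lower. Their median log2 fold change was 1.59 beside 0.83 for the members. They were selected on standard libraries, in which they are low at S1, so that part of this direction is set by the selection.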
